A study of Mus musculus with 778 samples.

Results

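The 10 genes described here, of 23201 in the count table, belong to the oocyte quality checkpoint and to the apoptosis machinery that it acts on. They are taken by name, and the rule uses no measured value, although the names were picked with earlier results of these data known. They comprise the checkpoint genes *Trp63* and *Chek2*, the effector *Bax*, the BH3-only genes *Bbc3* and *Pmaip1*, the Bcl2-like genes *Bcl2*, *Bcl2l1*, *Bcl2l10* and *Mcl1*, and the caspase gene *Casp2*. All 10 had at least 1 UMI in every stage. UMIs (unique molecular identifiers) are random tags by which the amplified copies of 1 cDNA molecule are counted once.

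Single oocytes from the ovaries of female wild-type ICR mice were profiled by single-cell RNA-seq at 5 stages of growth, which were told apart by oocyte diameter. Non-growing oocytes (NGO) were under 20 µm and came from mice 3 to 4 days old. Growing oocytes of 30 to 45 µm (GO1), 50 to 55 µm (GO2) and 60 to 65 µm (GO3) and fully-grown oocytes over 70 µm (FGO) came from mice 3 to 4 weeks old, so growth and mouse age cannot be told apart in any comparison with NGO. The table held 46 NGO, 51 GO1, 26 GO2, 44 GO3 and 56 FGO cells from 4 libraries, and because the library of a cell was not given, the cells of a stage were taken as 1 pooled sample with no replicates.

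Oocytes wait in meiotic arrest from around birth until ovulation, and those with unrepaired DNA breaks are removed by a dedicated checkpoint. In that checkpoint the kinase CHK2, encoded by *Chek2*, phosphorylates the p53 relative TAp63, encoded by *Trp63*, which then turns on the BH3-only genes *Bbc3* (PUMA) and *Pmaip1* (NOXA). BH3-only proteins bind the pro-survival relatives of BCL2 and release BAX, which opens the outer mitochondrial membrane so that cytochrome c can activate caspases. The checkpoint is known mainly from oocytes of primordial follicles, the state that NGO represent.

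Levels are given as counts per 1000000 UMIs (CPM), from the summed UMIs of all oocytes in a stage, and 5 values in a row follow the order NGO, GO1, GO2, GO3, FGO. By the size rule used here, a gene was higher or lower where its CPM differed 2-fold or more with 10 CPM or more on the higher side, and genes with 10 CPM on either side are called measured. Intervals are at 95% and cover counting error only, not the spread between oocytes or libraries. Since CPM is relative to all UMIs, it cannot show how much RNA an oocyte holds, which grows with its size. Stage totals ran from 24976634 to 64311908 UMIs. Median UMIs per cell were 110146 in GO1 against 540432 to 972294 in the other stages, and the 10 deepest cells held 80.4% of the UMIs of GO1 and 73.2% of those of GO2, against 42.6% to 49.7% elsewhere. Sums over GO1 therefore describe a few deep cells, and the median or mean over cells is given beside them for the 7 members with 10 CPM or more in a stage. For the other apoptosis genes most levels are sums only. All 10 oocyte markers had UMIs in every stage, with a summed level of 28531 CPM in NGO and 15213 to 21845 CPM in the other stages.

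From NGO to GO1, the step with the largest number of changes, 7 of the 10 genes were measured. *Bcl2l10* was higher in GO1, and *Chek2*, *Bax* and *Casp2* were lower. Over all 8527 genes measured in this step, 20.6% were higher and 25.7% lower by the same rule, so changes of this size were common in this step. The median log2 ratio of the 7 was −0.72, against −0.15 over all genes. *Trp63*, *Bcl2l1* and *Mcl1* did not reach 2-fold, and *Bbc3*, *Pmaip1* and *Bcl2* stayed under 10 CPM in every stage.

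**Figure D1:**
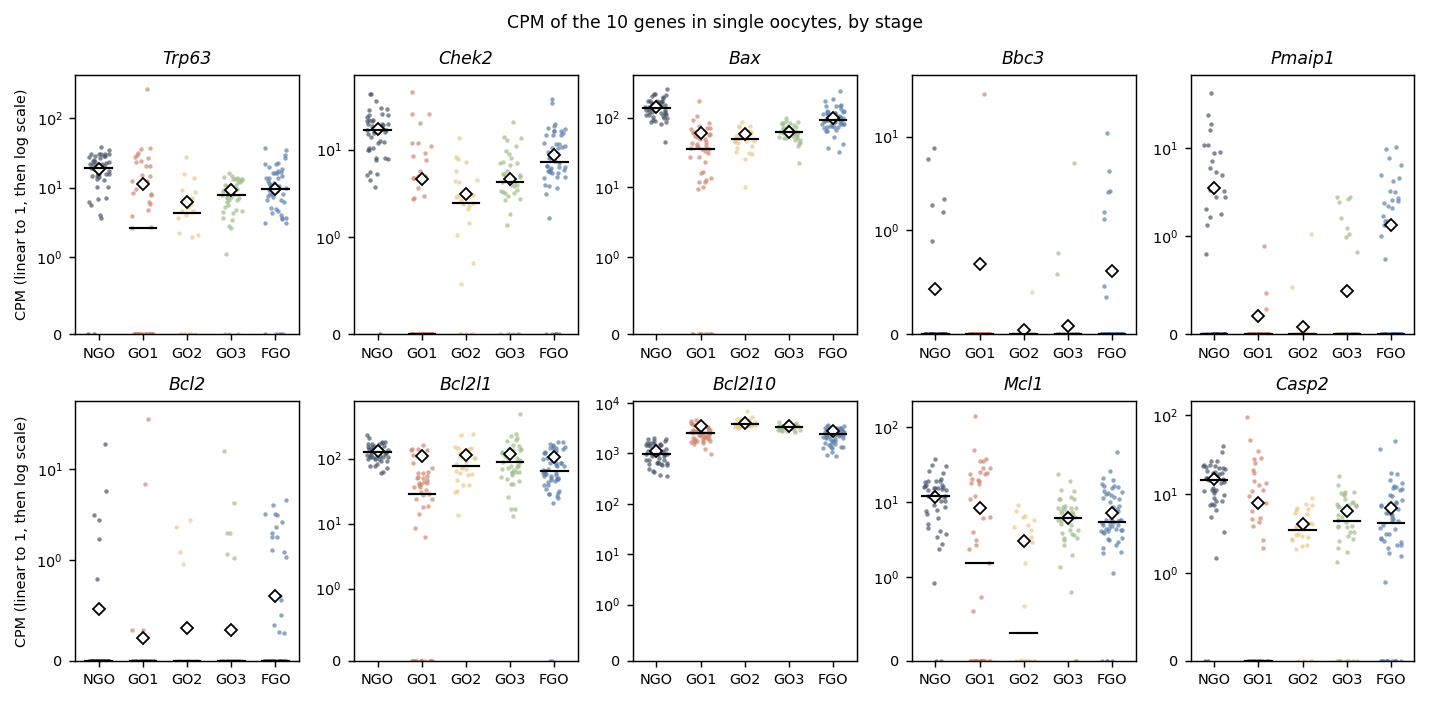
CPM of each of the 10 genes (y axis, linear to 1 and log above) in each oocyte (points), by stage (x axis), with the median over cells (line) and the CPM of the summed UMIs (diamond). By the medians *Bcl2l10* was highest in GO2 and GO3 and lowest in NGO, *Bax* was highest in NGO, and the GO1 median of *Bcl2l1* (28.4 CPM) lay well under its summed level (110.31 CPM).

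The checkpoint genes had low levels, and both were highest in NGO. *Trp63* (NCBIM37 chromosome 16, 25683849 to 25892188, plus strand) had 18.6 (468 UMIs), 11.3, 6.29, 9.09 and 9.47 CPM from NGO to FGO. Over cells it ran from 0 to 38.9 CPM in NGO with a median of 18.9, and the medians of the later stages were 2.66, 4.29, 7.9 and 9.67 CPM. The stages overlapped, and in NGO 44 of 46 cells stood above the GO1 median. The summed level was 1.65-fold lower in GO1 than in NGO (1.42 to 1.91) and 1.80-fold lower in GO2 than in GO1 (1.48 to 2.19), beyond counting error in both steps but short of 2-fold. A single GO1 oocyte carried 24.5% of all GO1 *Trp63* UMIs, and another stood at 263.29 CPM, the highest of the stage. Without the 10 deepest cells of each stage the log2 ratio from NGO to GO1 was −1.21, past 2-fold, against −0.72 in all cells. From NGO to FGO the level was 1.96-fold lower (1.73 to 2.22), just under the limit. The counts are per gene, so they do not separate the TAp63 transcripts of oocytes from other products of *Trp63*.

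*Chek2* (chromosome 5, 111269036 to 111303152, plus strand), which encodes the kinase upstream of TAp63, had 17.3, 4.6, 3.12, 4.66 and 8.57 CPM from NGO to FGO. Cells of NGO ran from 0 to 43.3 CPM with a median of 16.5. The GO1 median was 0, with a highest cell at 44.9 CPM, and 19 of 51 GO1 cells held a UMI. Medians were 2.44 CPM in GO2, 4.23 in GO3 and 7.2 in FGO. *Chek2* was thus highest in NGO, low from GO1 to GO3 and intermediate in FGO, although the ranges of cells overlapped throughout. It was 3.76-fold lower in GO1 than in NGO (3.07 to 4.64), 1.84-fold higher in FGO than in GO3 (1.58 to 2.15) and 2.02-fold lower in FGO than in NGO (1.78 to 2.29). The first call was lost after thinning to 20000 UMIs a cell, where the log2 ratio was −2.15 with too few UMIs to pass the size rule. The last value lies at the limit and dropped under it with DESeq2 or TMM factors, with 26 cells a stage, after thinning to 20000 UMIs a cell and as the mean over cells, where FGO stood at 0.529 of the NGO level.

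*Bax* (chromosome 7, 52717065 to 52722268, minus strand), the pore-forming effector, was detected in every cell of 4 stages and in 78.4% of the GO1 cells. Its summed level was 142.99, 59.9, 59.1, 63.3 and 99.3 CPM from NGO to FGO. Cells ran from 45.4 to 259.87 CPM in NGO (median 135.66), from 0 to 175.06 in GO1 (median 35.6), from 10.2 to 88 in GO2 (median 48.7), from 22.2 to 98.3 in GO3 (median 62.7) and from 32.5 to 238.52 in FGO (median 92.4). The pattern was a drop at the onset of growth and a partial return at its end. In GO1 the level was 2.39-fold lower than in NGO (2.25 to 2.53), and 34 of the 51 GO1 cells lay below every NGO cell. This call held under all 7 other ways of scaling or choosing cells, with log2 ratios from −1.99 to −1.10. From GO1 to GO2 the ratio was 0.987 (0.919 to 1.06), and from GO2 to GO3 it was 1.07 (1.01 to 1.14). FGO stood 1.57-fold above GO3 (1.5 to 1.64), with 26 of 56 FGO cells above every GO3 cell, and 1.44-fold below NGO (1.38 to 1.5), both short of 2-fold.

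The promoters of the 3 genes that were lower in GO1 than in NGO are printed, since these are the members that moved together at the onset of growth. The promoter table, from RefSeq on GRCm38.p6, held 7 of the 10 genes, without *Trp63*, *Pmaip1* and *Bcl2l10*. Each sequence is the 250 bases before the annotated start, 5′ to 3′ on the strand of the gene, and matched a single place on NCBIM37. These were chr5:111268752-111269001 (plus strand) for *Chek2*, chr7:52722269-52722518 (minus strand) for *Bax* and chr6:42214734-42214983 (plus strand) for *Casp2*. Capitals mark motif matches on either strand, searched as the GC box GGGCGG, the CCAAT box CCAAT, the TATA box TATAAA, the E-box CACGTG and the p53-family half-site.
Chek2: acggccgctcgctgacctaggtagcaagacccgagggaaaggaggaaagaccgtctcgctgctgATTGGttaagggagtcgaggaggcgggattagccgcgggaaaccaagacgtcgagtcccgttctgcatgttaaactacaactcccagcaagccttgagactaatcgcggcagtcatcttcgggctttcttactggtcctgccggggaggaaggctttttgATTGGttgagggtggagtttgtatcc
Bax: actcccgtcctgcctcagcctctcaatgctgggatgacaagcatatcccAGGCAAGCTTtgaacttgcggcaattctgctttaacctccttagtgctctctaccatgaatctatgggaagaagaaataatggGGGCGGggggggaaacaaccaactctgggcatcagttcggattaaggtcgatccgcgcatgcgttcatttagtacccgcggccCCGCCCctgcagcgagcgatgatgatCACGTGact
Casp2: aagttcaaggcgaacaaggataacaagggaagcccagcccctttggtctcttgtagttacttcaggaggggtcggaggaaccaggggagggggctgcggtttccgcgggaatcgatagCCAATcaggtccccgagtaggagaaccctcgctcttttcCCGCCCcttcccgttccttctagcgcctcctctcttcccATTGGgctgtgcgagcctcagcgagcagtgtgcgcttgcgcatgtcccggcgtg
*Chek2* held 2 CCAAT boxes, both on the opposite strand, where they read ATTGG. *Casp2* held 2 CCAAT boxes, 1 on each strand, and 1 GC box. *Bax* held 2 GC boxes, 1 CACGTG and 1 p53-family half-site that begins 201 bases before the start. No matches overlapped, and no motif was present in all 3. Among 32536 promoter windows of the same length, 33.8% held a CCAAT box, 33% a GC box, 12.3% a TATA box, 7.12% a p53-family half-site and 6.04% a CACGTG, and these matches are letters in a window, with no measure of binding.

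The BH3-only genes *Bbc3* (chromosome 7, 16894965 to 16903554, plus strand) and *Pmaip1*, the targets of TAp63 that carry the death signal to mitochondria, were near the limit of detection. *Bbc3* had 11, 18, 1, 4 and 39 UMIs from NGO to FGO, found in 6, 1, 1, 3 and 8 cells of these stages. All 18 GO1 UMIs came from 1 oocyte, and 22 of the 39 FGO UMIs (56.4%) from another, so a stage sum of *Bbc3* describes single cells. *Pmaip1* had 88, 5, 2, 22 and 86 UMIs from NGO to FGO, or 3.49, 0.187, 0.0801, 0.442 and 1.34 CPM. It was found in 21 of 46 NGO cells, 3 of 51 GO1 cells, 2 of 26 GO2 cells, 9 of 44 GO3 cells and 22 of 56 FGO cells. Its level was 18.7-fold lower in GO1 than in NGO (7.71 to 59) and 3.03-fold higher in FGO than in GO3 (1.88 to 5.08), both beyond counting error and both under 10 CPM, so neither was counted as a change. Thinned to 20000 UMIs a cell, *Pmaip1* was found in 4.35% of NGO cells (0.531 to 14.8) and in 0 of 51 GO1 cells (0 to 6.98), so at equal depth the difference was not detectable.

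**Figure D2:**
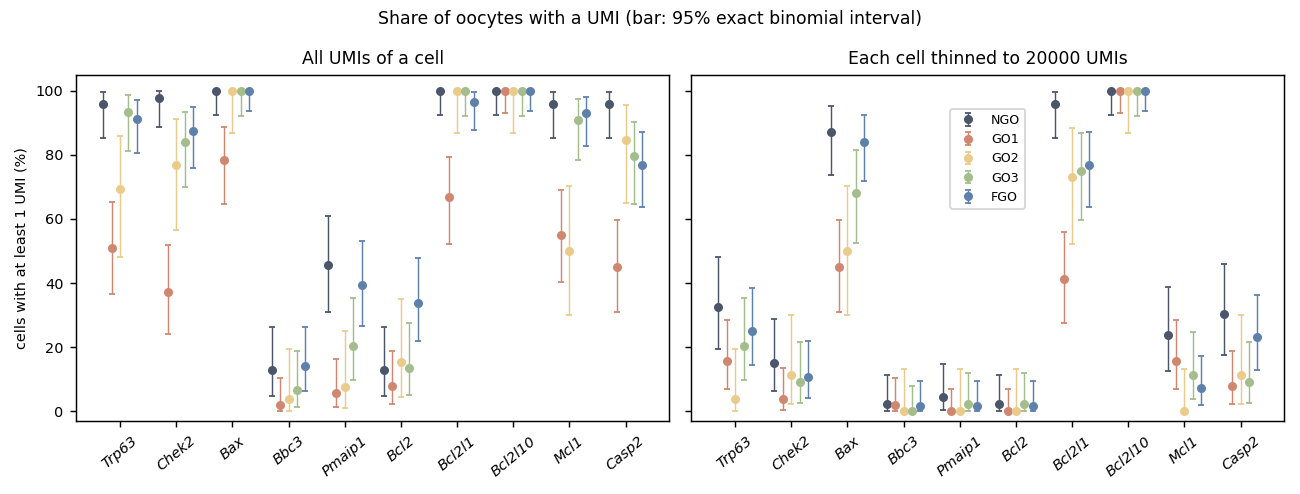
Share of oocytes with at least 1 UMI of each gene (y axis, percent; bar, 95% exact binomial interval) by stage, with all UMIs (left) and with every cell thinned to 20000 UMIs (right). *Bcl2l10* was found in 100% of cells at either depth, *Bax* in 45.1% of GO1 and 87% of NGO cells after thinning, and *Bbc3*, *Pmaip1* and *Bcl2* in at most 4.35% of thinned cells of a stage.

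Of the Bcl2-like members, *Bcl2l10* (chromosome 9, 75195565 to 75199439, plus strand) was the one that went up with growth. It encodes a Bcl-2 relative with prominent expression in the ovary. Its summed level was 1120, 3513, 3972, 3444 and 2731 CPM from NGO to FGO. Cells ran from 355.29 to 1974 CPM in NGO (median 972.96), from 987.48 to 4487 in GO1 (median 2486), from 3144 to 6849 in GO2 (median 3860), from 2668 to 4112 in GO3 (median 3374) and from 902.45 to 3587 in FGO (median 2407). Every oocyte held *Bcl2l10* UMIs, also after thinning to 20000 UMIs, and every GO1 cell stood above the NGO median. GO1 was 3.14-fold above NGO (3.09 to 3.18), a log2 ratio of 1.65 that ran from 1.30 to 1.81 under the 7 other settings, past 2-fold in each. In GO1, 37 of 51 cells lay above every NGO cell.

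In the 2 stages that followed, *Bcl2l10* separated completely from NGO. Every GO2 cell and every GO3 cell lay above every NGO cell, a pattern found for 1.69% of the 8299 genes measured in NGO or GO2 and for 1.78% of the 8336 measured in NGO or GO3. The level then declined. It was 1.15-fold lower in GO3 than in GO2 (1.14 to 1.16) and 1.26-fold lower in FGO than in GO3 (1.25 to 1.27), and 37 of 56 FGO cells lay below every GO3 cell. FGO still stood 2.44-fold above NGO (2.41 to 2.47), with 39 of 56 FGO cells above every NGO cell and log2 ratios of 1.13 to 1.46 under the other settings. Within FGO, GO1 and GO3 the level was higher in deeper cells. Its Spearman correlation to the UMIs of a cell was 0.70 over 56 FGO cells, 0.64 over 51 GO1 cells and 0.49 over 44 GO3 cells. In NGO it was 0.16 and in GO2 0.11. In GO1 cells under 100000 UMIs the summed level was 2098 CPM, and in GO1 cells with at least 100000 UMIs it was 3585 CPM, both above the 1120 CPM of NGO.

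*Bcl2l1* (chromosome 2, 152593052 to 152657464, minus strand), which encodes the pro-survival protein BCL-XL, differed between deep and shallow GO1 cells, and the step from NGO to GO1 depended on how cells were weighted. Summed levels were nearly flat, at 130.8, 110.31, 114.03, 117.04 and 106.57 CPM from NGO to FGO. Cells ran from 60.5 to 227.57 CPM in NGO (median 125.18), from 0 to 161.23 in GO1 (median 28.4), from 13.6 to 243.57 in GO2 (median 78.2), from 13.1 to 484.99 in GO3 (median 89.8) and from 0 to 182.22 in FGO (median 64.1). In GO1, 41 of 51 cells lay below every NGO cell, although the sums differed 1.19-fold (1.13 to 1.25). As the mean over cells *Bcl2l1* was 127.39 CPM in NGO and 38 CPM in GO1, a log2 ratio of −1.75 against −0.25 in the sums, and it was lower in GO1 by the size rule as the mean, after thinning (−2.14) and without the 10 deepest cells (−1.85). The 24 GO1 cells under 100000 UMIs held 20 *Bcl2l1* UMIs, or 15.5 CPM, and the 27 deeper cells held 115.12 CPM. The Spearman correlation of its level with the UMIs of a cell was 0.79 in GO1, 0.74 in GO2, 0.53 in FGO, 0.29 in GO3 and 0.14 in NGO, given as a description over cells that share a pool. Whether the depth of a cell or the state of the oocyte sets this difference was not tested.

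**Figure D3:**
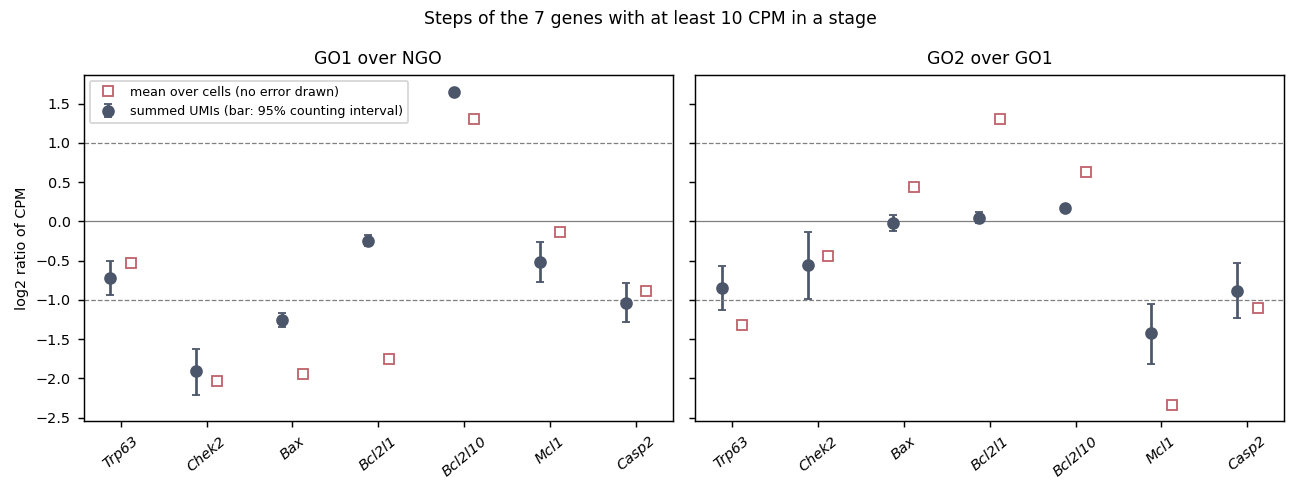
Log2 ratio of CPM (y axis) for the 7 genes with at least 10 CPM in a stage, GO1 over NGO (left) and GO2 over GO1 (right), from summed UMIs (filled points; bar, 95% counting interval) and as the mean over cells (open squares); dashed lines mark 2-fold. For *Bcl2l1* the sums gave −0.25 and 0.05 in the 2 steps, where the means gave −1.75 and 1.30.

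*Mcl1* (chromosome 3, 95462643 to 95467099, plus strand) and *Bcl2* (chromosome 1, 108434755 to 108610851, minus strand), which like *Bcl2l1* encode pro-survival proteins, had low levels. *Mcl1*, which encodes a short-lived inhibitor needed for oocyte survival, had 11.9, 8.3, 3.08, 6.2 and 7.26 CPM from NGO to FGO. Medians over cells were 12, 1.54, 0.33, 6.1 and 5.48 CPM, and the highest cells stood at 37.9, 140.05, 9.08, 23.8 and 46.2 CPM. The lowest stage was GO2 both in the sums and in the medians. GO1 was 1.43-fold below NGO (1.2 to 1.71) in the sums, but 1 GO1 oocyte held 30.6% of its GO1 UMIs, and the log2 ratio moved from −0.52 to 0.09 after thinning. From GO1 to GO2 it was 2.69-fold lower (2.07 to 3.54) and from GO2 to GO3 2.01-fold higher (1.56 to 2.62), in both cases under 10 CPM. *Bcl2* itself had 13, 6, 8, 15 and 41 UMIs in the 5 stages in order of growth, at most 0.638 CPM, and was found in 7.84% to 33.9% of the cells of a stage. Its NGO to GO1 ratio of 0.435 (0.135 to 1.23) was not distinguishable from 1 at this depth, and an RNA gene on the opposite strand, *D630008O14Rik*, overlaps it.

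*Casp2* (chromosome 6, 42214984 to 42232507, plus strand), which encodes an initiator caspase, was highest in NGO as well. It had 15.7, 7.66, 4.16, 6.12 and 6.73 CPM from NGO to FGO. Cells of NGO ran from 0 to 41.4 CPM with a median of 15.4. The GO1 median was 0 with a highest cell at 95.7 CPM, and 23 of 51 GO1 cells held a UMI. The medians of GO2, GO3 and FGO were 3.52, 4.61 and 4.28 CPM. NGO was the stage with most *Casp2*, and the later 4 stages overlapped widely. It was 2.05-fold lower in GO1 than in NGO (1.73 to 2.44), at the limit, and the call was lost with size factors from DESeq2 or edgeR, with 26 cells a stage and as the mean over cells, where log2 ratios reached −0.63. FGO was 2.33-fold below NGO (2.03 to 2.68), a call lost after thinning.

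After GO1 no member passed the size rule in the sums of a single step, although several differences given above were beyond counting error. None of the 4 measured from GO1 to GO2 passed the size rule, against 0.109% of all genes higher and 3.03% lower in GO2, with a median log2 ratio of 0.01 against −0.11 over all genes. As the mean over cells, 3 members passed it in this step, with *Trp63* and *Mcl1* lower in GO2 at log2 ratios of −1.32 and −2.34 and *Bcl2l1* higher at 1.30. The GO1 means of *Trp63* (13.1 CPM) and *Mcl1* (11.9 CPM) include single cells at 263.29 and 140.05 CPM. By the medians *Trp63* was higher in GO2 (4.29 CPM) than in GO1 (2.66), and *Mcl1* was lower (0.33 against 1.54). None of the 3 measured from GO2 to GO3 passed the size rule, against 3.34% higher and 1.01% lower. None of the 3 measured from GO3 to FGO passed it, against 2.41% higher and 3.54% lower. Between the ends of growth, *Bcl2l10* was higher in FGO than in NGO and *Chek2* and *Casp2* were lower, 3 of 7 measured, where 11.3% of all genes were higher and 16% lower. The median log2 ratio was −0.71 over the 7, against −0.12 over all genes. With 3 to 7 genes in a step these shares are read as counts only. Dividing by TMM factors shifted the median over all genes by 0.16 from NGO to GO1 and by 0.17 from NGO to FGO on the log2 scale, and neither *Bax* nor *Bcl2l10* changed its call from NGO to GO1.

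The rest of the pathway was taken as 64 further genes of the checkpoint, the Bcl-2 family, the caspases, the apoptosome, the inhibitor of apoptosis proteins, the death receptor pathway and DNA fragmentation. From NGO to GO1, 35 of them were measured, of which 7 were higher in GO1, 12 lower and 16 neither, with a median log2 ratio of −0.27. Of the 35, 54.3% passed the size rule, against 46.3% of all genes measured. Of 5 BH3-only genes measured 3 were lower in GO1 and 0 higher, where 25.7% of all genes were lower. *Bik*, named after its values were seen, had 29.6 CPM in NGO and 52.8 in GO1, 1.78-fold higher (1.63 to 1.95) and short of 2-fold. This rise was in the sums only, and 1 GO1 oocyte held 24.3% of the *Bik* UMIs of GO1. Over cells the *Bik* mean was 27 CPM in NGO and 30.5 in GO1, and the medians were 25.8 and 26.6. *Bid*, which links death receptors to mitochondria, had 28.5 CPM in NGO and 0.71 in GO1, 40.2-fold lower (25.5 to 67.1), and 1.48, 1.36 and 1.9 CPM in the stages that followed. *Bad*, a sensor of growth factor signals, had 18.7 CPM in NGO, 3.1 in GO1 and 8.24 in FGO. Of the other effectors, *Bak1* and *Bok*, neither reached 10 CPM in NGO or GO1.

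Among the 12 checkpoint genes measured, 2 were higher in GO1 and 2 lower in the sums, where 20.6% of all genes were higher and 25.7% lower. *Trp53* was lower too as the mean over cells (34.6 CPM in NGO, 9.86 in GO1), after thinning and without the 10 deepest cells. *Csnk1a1* was lower without the 10 deepest cells. *Chek1* was higher with DESeq2 or TMM factors and with 26 cells a stage. *Mdm4*, an inhibitor of p53, had 444.6, 3049, 3051, 3344 and 2029 CPM from NGO to FGO, 6.86-fold higher in GO1 than in NGO (6.72 to 6.99). It shared with *Bcl2l10* the full separation of cells, since the highest NGO cell stood at 1840 CPM and the lowest GO2 and GO3 cells at 1879 and 2293 CPM. *Trp73*, the other p53 relative, had 3.21 CPM in NGO and 11.6 in GO1, 3.59-fold higher (2.80 to 4.65), but its median over GO1 cells was 0 and the call was lost as the mean over cells, with 26 cells a stage, after thinning and without the 10 deepest cells. *Cdkn1a*, the p53 target that encodes p21, had 10.1 CPM in NGO and 2.95 in GO1, 3.41-fold lower (2.64 to 4.45). Its NGO level lay close to the limit of 10 CPM, and it lost its call with size factors from DESeq2 or edgeR and with 26 cells a stage.

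Downstream of mitochondria the genes went both ways. Of 4 apoptosome and mitochondrial release genes measured, 2 were higher and 2 lower in GO1, and of 4 inhibitor of apoptosis genes and 2 further caspases 1 was higher and 1 lower in each group. Over all genes 20.6% were higher and 25.7% lower. The higher caspase, *Casp8*, lost its call after thinning and as the mean over cells, at 24.3 CPM in NGO and 47.3 in GO1. *Apaf1*, the scaffold of the apoptosome, had 0.952, 10.9, 10.9, 8.03 and 2.64 CPM from NGO to FGO, 11.5-fold higher in GO1 than in NGO (7.55 to 18.2). *Diablo*, whose product relieves caspases of their inhibitors, had 72.1 CPM in NGO and 18.2 in GO1, 3.96-fold lower (3.58 to 4.38). *Casp6*, an executioner caspase, had 36.1, 5.08, 4.48, 7.57 and 15.6 CPM from NGO to FGO. For this gene 41 of 51 GO1 cells lay below every NGO cell, and only 22 of the 51 held a UMI. Like *Bax* and *Chek2*, *Casp6* was low from GO1 to GO3 and higher in FGO. *Parp1*, a DNA break sensor cut by caspases, had 119.53 CPM in NGO, 17.5 in GO1 and 41.5 in FGO, with 50 of 51 GO1 cells below every NGO cell. *Tradd*, an adaptor of the TNF receptor, had 18.3 CPM in NGO, 4.11 in GO1 and 19.1 in FGO. In the sums *Tradd* was the only 1 of 4 death receptor genes measured to pass the size rule from NGO to GO1. As the mean over cells *Fadd* was lower too (46.3 CPM in NGO, 13.5 in GO1), as it was after thinning and without the 10 deepest cells. *Cflar* was higher as the mean over cells (311.29 CPM in NGO, 624.53 in GO1). Among 3 further Bcl2-like genes measured 1 was higher and 1 lower, and *Bcl2l15* had 1.51, 16.1, 15.1, 5.68 and 0.777 CPM from NGO to FGO, a level that was present in early growth and nearly gone in FGO, and *Bcl2l12* had 18.2 CPM in NGO and 5.46 in GO1.

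**Figure D4:**
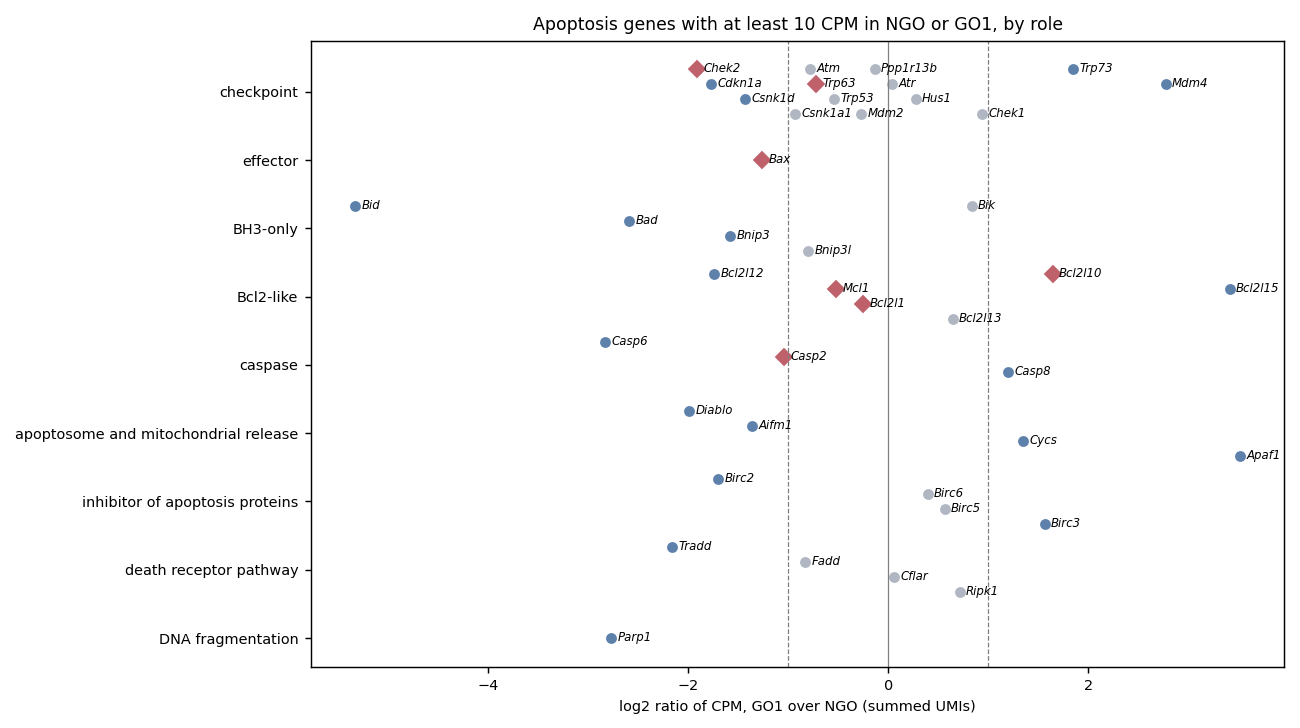
Log2 ratio of CPM, GO1 over NGO (x axis, from summed UMIs), for the measured apoptosis genes, by role (y axis); red diamonds are 7 of the 10 genes, blue points others past the size rule, grey points others short of it, and dashed lines mark 2-fold. *Bid* lies farthest to the left at −5.33 and *Apaf1* farthest to the right at 3.52.

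In the later steps few of the other apoptosis genes, and few of all genes, passed the size rule. From GO1 to GO2, 0 of 27 measured passed the size rule, and from GO2 to GO3 1 of 25, *Bcl2l15*, was lower. Over all genes measured, 3.14% passed it from GO1 to GO2 and 4.35% from GO2 to GO3. From GO3 to FGO 2 of 27, *Casp6* and *Tradd*, were higher in FGO, where 5.96% of all genes passed the rule in either direction. The *Casp6* call was lost with DESeq2 or TMM factors and with 26 cells a stage. From NGO to FGO 4 of 33 were higher (*Trp73*, *Mdm4*, *Cycs* and *Birc3*) and 6 lower (*Csnk1a1*, *Bad*, *Bid*, *Casp6*, *Diablo* and *Parp1*), with a median log2 ratio of −0.25. Over all genes 11.3% were higher and 16% lower, with a median of −0.12. The *Csnk1a1* call was lost with DESeq2 or TMM factors, with 26 cells a stage and in cells with at least 100000 UMIs. With 26 cells a stage *Cycs* was lost too. As the mean over cells *Trp73* and *Birc3* were lost, and *Trp73* also after thinning and without the 10 deepest cells. *Csnk1a1* encodes a casein kinase, *Cycs* cytochrome c and *Birc3* an inhibitor of apoptosis protein, and they are named here to complete the counts.

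Genes whose pattern over the 5 stages was most like that of a member were ranked by the root mean square difference of log2(CPM + 1), centred on each gene, among 8670 other genes. For *Bcl2l10* the nearest were *Polr2d* (0.028) and *Spin1* (0.038), which encode an RNA polymerase II subunit and a reader of histone methylation. *Spin1* had 2279, 7324, 8275, 7035 and 5300 CPM from NGO to FGO. For *Bax* they were *Mcts2* (0.035), *Elp3* (0.039) and *Dctn6* (0.041), and *Elp3* had 136.36, 58.9, 58.8, 58.8 and 92.6 CPM from NGO to FGO. For *Bcl2l1* they were *Znhit6* (0.036), *Ptcd2* (0.040) and *Ywhaz* (0.043). For *Trp63* they were *Herc3* (0.033), *Fut8* (0.035) and *Prdm4* (0.049), and for *Chek2* they were *Slc25a22* (0.058), *Trmt2b* (0.059) and *Hykk* (0.067). *Mcl1* and *Casp2* had looser neighbours, with *Ptprf* at 0.064 and *Calu* at 0.059 as the nearest. The distance rests on 5 pooled values a gene, so many genes lie close to any one.

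The summed levels of markers of the other ovarian cells moved between the stages too, though not all markers of a list moved alike. Summed over 10 granulosa markers the level was 15.9, 44.3, 36.4, 35.9 and 20.5 CPM from NGO to FGO, mostly from *Cyp19a1*, *Nr5a2* and *Kitl*. *Amh*, *Foxl2*, *Hsd17b1* and *Fst* stayed under 1 CPM in every stage, with *Amh* at 0 in GO2. *Inhba* went the other way, with 1.67 CPM in NGO and 0.785 in GO1. Over 8 stroma and theca markers it was 8.65 CPM in NGO, with 1 cell at 250.98, and 1.05 to 1.59 CPM in the other stages, where *Lum* was at 0 in GO1, GO2 and GO3. Over 8 blood and vessel markers it was 9.13 CPM in NGO and 28.5 to 51 CPM in the other stages, mostly from *Pecam1*. *Hbb-b1* and *Hba-a1* were at 0 in every stage, and *Ptprc* and *Cdh5* at 0 in every stage except GO3. *Cd68* went the other way, with 4.48 CPM in NGO and 1.57 in GO1. The granulosa and the blood and vessel sums were higher in the stages where *Bcl2l10* was higher, and the stroma sum was highest in NGO, as were *Bax*, *Trp63*, *Chek2* and *Casp2*. Their part in these differences was not tested.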

How the data were processed

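Single oocytes were profiled by UMI-based single-cell RNA-seq. The authors sorted reads by cell barcode, trimmed them, mapped them with Tophat to the mm9 transcriptome, removed UMI duplicates, filtered cells by genes, transcripts and spike-ins, and deposited raw counts of UMIs per gene and cell. Column names give the stage of a cell and not its library, so each stage was 1 pooled sample, no test between stages was made, and stage is the column prefix. A list of barcodes, with no link to cells, and the chromatin and methylation assay were not used. No doublet caller was run on hand-picked oocytes. Strand of counting is not given in the sources used here, and small RNA genes lie within *Trp63*, *Bcl2l1* and *Casp2*.

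Sums were scaled to CPM, with exact Poisson, binomial-split and binomial intervals. Zero sums were set to 3 UMIs for ratios. Named besides the 10 genes are the 12 other apoptosis genes with the largest ratio past the size rule in any step, and for each member with at least 10 CPM the 3 genes of nearest pattern (for *Mcl1* and *Casp2* the text gives the nearest); 1 of these genes is not reported here. *Bik*, *Csnk1a1*, *Cycs*, *Birc3*, *Trp53*, *Chek1*, *Casp8*, *Fadd* and *Cflar* were added to complete counts, and *Spin1* and *Elp3* values were given for illustration, after values were seen. The gene lists, like the members, were chosen with earlier results of these data known. Positions are GENCODE vM1 on NCBIM37, the build of mm9. Alternatives were size factors (DESeq2 1.42.0), TMM factors (edgeR 4.0.16), 26 cells a stage, 20000 UMIs a cell, the mean over cells, sums without the 10 deepest cells, limits of 1.5-fold and 50 CPM, and no filter on low counts. Cells with at least 100000 UMIs were tried after seeing the data. That setting leaves out only shallow cells, which held few of the UMIs, so its sums stay near those of all cells. The size rule was tested on simulated data. Scripts ran in R 4.3.3 and in Python 3.11.15 with scipy 1.17.1, pandas 2.3.3, matplotlib 3.10.9 and numpy 2.4.6.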

Additional observations from a re-analysis of the deposited data

How the results depend on the processing

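No called gene turned from higher to lower, or the reverse, in these settings. For the 10 members, the count past the size rule from NGO to GO1 went from 4 to 2 at 50 CPM. It was 3, without *Casp2*, with DESeq2 factors, TMM factors or 26 cells a stage. It was 5 at 1.5-fold and 6 with no filter, and 6 without the 10 deepest cells, which added *Trp63* and *Bcl2l1*. After thinning it stayed at 4, with *Bcl2l1* in place of *Chek2*, and as the mean over cells with *Bcl2l1* in place of *Casp2*. From GO1 to GO2 it went from 0 to 2 with 26 cells a stage, 3 after thinning, 3 as the mean over cells, 1 without the 10 deepest cells, 1 at 1.5-fold and 3 with no filter on low counts. From GO2 to GO3 it went from 0 to 1 after thinning and 3 with no filter, from GO3 to FGO from 0 to 1 at 1.5-fold and 3 with no filter, and from NGO to FGO from 3 to 5 at 1.5-fold and 1 at 50 CPM. In this last comparison it was 2 with DESeq2 factors, TMM factors or 26 cells, after thinning and as the mean, and 4 with no filter. For the other 64 genes only changes of more than 1.5-fold, or from or to 0, are listed. In the first step their count went from 19 to 9 at 50 CPM and 32 with no filter. From GO1 to GO2 it went from 0 to 2 with 26 cells, 6 after thinning, 6 as the mean, 1 without the 10 deepest cells, 3 at 1.5-fold and 10 with no filter. From GO2 to GO3 it went from 1 to 2 after thinning, 3 at 1.5-fold, 0 at 50 CPM and 10 with no filter. From GO3 to FGO it went from 2 to 1 with DESeq2 factors, TMM factors or 26 cells, 6 after thinning, 6 at 1.5-fold, 0 at 50 CPM and 14 with no filter. From NGO to FGO it went from 10 to 18 at 1.5-fold, 6 at 50 CPM and 18 with no filter. Lower limits and no filter admit more genes by construction, and the cause of the other moves was not tested. Of the 50 member ratios, 37 moved beyond their counting interval after thinning, which leaves few UMIs of *Trp63*, *Chek2*, *Mcl1* and *Casp2*. The mean over cells moved 23, sums without the 10 deepest cells 22, 26 cells a stage 16, DESeq2 factors 15 and TMM factors 14. The setting of at least 100000 UMIs a cell, chosen after seeing the data, moved 2. It could hardly move sums, since the 24 GO1 cells left out held 2713 of the 93975 *Bcl2l10* UMIs of GO1. No paired analysis was possible because the columns carry no library and their numbers only name cells. A change of *Bbc3*, *Pmaip1* or *Bcl2* under 10 CPM cannot be called at this depth.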
